A study of Mus musculus with 24 samples.

Results

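The PYHIN family, also called the Ifi200 family, was followed through 4 tissues of *Trex1*-/- mice that received the STING antagonist SN-011 or no antagonist. Its members were taken as the rows of the count tables whose Ensembl identifier carries the symbol *Aim2*, *Ifi203*, *Ifi204*, *Ifi205*, *Ifi207*, *Ifi209*, *Ifi211*, *Ifi213* or *Mndal* in GENCODE release M21. These are 9 of the 54532 genes listed, and all 9 passed the filter on low counts in every tissue. The tissues were the heart, stomach, muscle and tongue, each with 3 control and 3 SN-011 samples, 24 in all. In tongue, the levels of 5 members lay lower in every SN-011 sample than in every control sample, beside 7.92% of all genes tested there. In heart, stomach and muscle 0 members did so, beside 13.4%, 16.1% and 21.6%. No member passed an adjusted p of 0.05 in any tissue.

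Every mouse was a *Trex1* knockout on the C57BL/6J background, and none was wild type, so both groups lack this exonuclease. By the methods the mice were about a month old when the injections began, and older when the tissues were taken. *Trex1* was listed at 0 counts in every sample, in an annotation where it overlaps *Atrip* on the same strand, so the counts do not show the genotype. The labels call the controls untreated, while the methods describe a vehicle of Tween 80 in PBS. The labels give SN-011 at 5 mg/kg, 3 times a week for 4 weeks, and the methods give a higher daily dose over fewer weeks. Whole tissues were sequenced, so fewer cells that express a gene and less RNA per cell cannot be told apart. Levels are given in CPM, which are counts scaled to a common library size. Each tissue carried its own defining markers: in the controls the mean was 13956 CPM for *Myh6* in heart, 2730 for *Atp4a* in stomach, 20399 for *Ckm* in muscle, and 15179 for *Krt13* with 1598 for *Ckm* in tongue.

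PYHIN proteins are interferon-inducible proteins that join an N-terminal pyrin domain, which binds other pyrin domains, to HIN domains, which bind double-stranded DNA. AIM2 is the member that assembles an inflammasome in the cytosol: it recruits the adaptor ASC, the product of *Pycard*, and through it caspase-1. The Ifi200 proteins are mostly nuclear, and IFI204, a mouse relative of human IFI16, is known for acting upstream of STING. The genes are abundant in macrophages and other leukocytes and lie side by side in one cluster that differs in gene content between mouse strains.

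All members lie on chromosome 1 of GRCm38, from *Aim2* at chr1:173350879-173466040 (plus strand) to *Ifi205* at chr1:174011998-174031810 (minus strand). *Ifi213* (chr1:173566283-173599274), *Ifi207* (chr1:173723427-173741747), *Ifi204* (chr1:173747293-173766943), *Ifi211* (chr1:173896345-173913046) and *Ifi203* (chr1:173920407-173942672) are on the minus strand, and *Ifi209* (chr1:173630917-173647928) is on the plus strand. *Mndal*, a relative of the human myeloid nuclear antigen MNDA, is annotated on the minus strand at chr1:173849126-173942491, an interval that holds all of *Ifi211* and most of *Ifi203*. Of the exonic bases of *Mndal*, 4.27% lie in exons of *Gm38050* or *Ifi203* on the same strand.

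The members also share sequence, and since only pairs mapped to 1 place were counted, reads from identical stretches could have been dropped. Of all 100-base words in its transcripts, *Ifi211* shares 56.9% with other genes, *Ifi205* and *Ifi204* foremost. The shares were 16.9% for *Ifi209* (with *Ifi214*), 15.04% for *Ifi205*, 10.7% for *Ifi204*, 6.38% for *Mndal*, 3.30% for *Ifi213*, 2.84% for *Ifi203* and 0.790% for *Ifi207*. *Aim2* shares none. The level of *Ifi211* is therefore the least certain of the family.

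Because the family is known for its response to interferon and 5 members lay lower in every SN-011 sample of tongue, the bases before the annotated start were searched for the interferon-stimulated response element (ISRE). RefSeq entries (GRCm38.p6, 250 bases before to 50 after the start) were found for 8 of 9 members, with none for *Ifi204*. On either strand, GAAANNGAAA was present in 6 of the 8 (*Ifi203*, *Ifi205*, *Ifi207*, *Ifi211*, *Ifi213* and *Mndal*) and in 3.99% of 27025 genes. The interferon-gamma activated site TTCNNNGAA was found in 0 of 8 members and in 9.55% of genes. *Ifi203*, *Ifi205*, *Ifi207*, *Ifi211* and *Ifi213* are shown over 120 bases in the direction of transcription and *Mndal*, whose stretch overlaps annotated exons, over 30 bases. Capitals mark the match. *Ifi209* is shown as a promoter with no match.
*Ifi203*, second start, chr1:173942493-173942612, minus strand: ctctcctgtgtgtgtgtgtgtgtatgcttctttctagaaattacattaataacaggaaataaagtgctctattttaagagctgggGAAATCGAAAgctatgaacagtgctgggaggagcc
*Mndal*, first start, chr1:173880204-173880233, minus strand: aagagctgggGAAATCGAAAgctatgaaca
*Ifi211*, chr1:173913047-173913166, minus strand: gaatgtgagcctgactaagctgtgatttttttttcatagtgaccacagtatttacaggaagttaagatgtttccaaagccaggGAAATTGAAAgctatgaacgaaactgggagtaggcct
*Ifi207*, chr1:173741810-173741929, minus strand: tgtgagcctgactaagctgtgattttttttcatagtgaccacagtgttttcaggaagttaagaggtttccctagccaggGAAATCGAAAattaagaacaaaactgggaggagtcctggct
*Ifi205*, chr1:174031816-174031935, minus strand: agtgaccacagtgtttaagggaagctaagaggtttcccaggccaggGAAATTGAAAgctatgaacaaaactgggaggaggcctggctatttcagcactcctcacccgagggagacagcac
*Ifi213*, chr1:173599273-173599392, minus strand: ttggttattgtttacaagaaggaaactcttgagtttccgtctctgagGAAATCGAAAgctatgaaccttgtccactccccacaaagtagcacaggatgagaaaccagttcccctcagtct
*Ifi209*, chr1:173630739-173630858, plus strand: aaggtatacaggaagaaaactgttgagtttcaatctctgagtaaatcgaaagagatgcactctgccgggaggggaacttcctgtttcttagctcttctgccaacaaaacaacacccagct

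The match began 35 bases before the start in *Ifi203*, 36 in *Mndal*, 37 in *Ifi211*, 41 in *Ifi207*, 73 in *Ifi213* and 134 in *Ifi205*. *Ifi205* also had a match after its start, and *Mndal* one before its second start, both on the opposite strand. The letters were GAAATCGAAA in *Ifi203*, *Mndal*, *Ifi207* and *Ifi213*, and GAAATTGAAA in *Ifi205* and *Ifi211*. Over 70 bases aligned on the motif without gaps, *Ifi203* and *Mndal* were identical at 70 bases, and *Ifi205* and *Ifi211* at 62. *Ifi207* matched each of *Ifi205* and *Ifi211* at 59 of the 70. The match is a description of letters. *Ifi205* and *Ifi207* carry it, and their fold changes in tongue, fitted with every sample, were the nearest to 0 of all members. *Ifi204*, whose fold change was the farthest from 0, had no promoter entry.

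**Figure D1:**
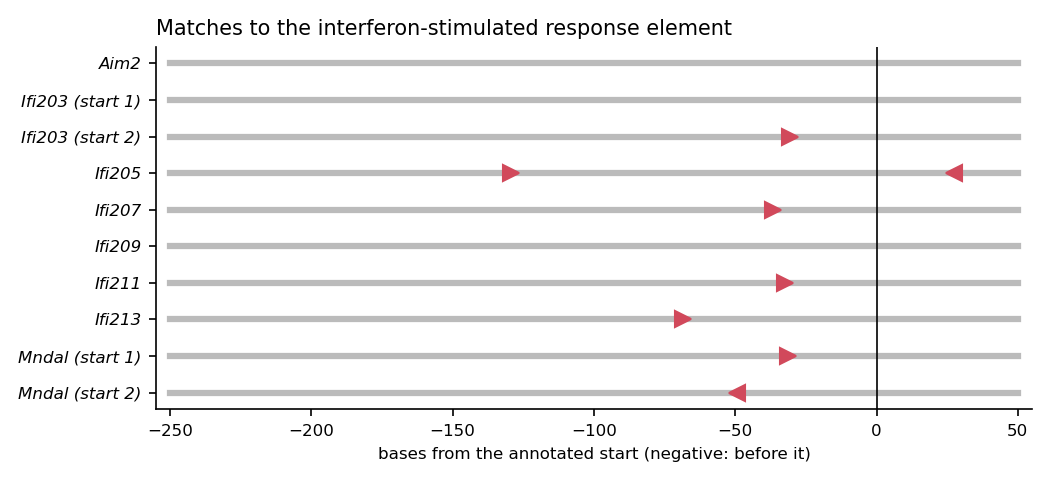
Matches to the interferon-stimulated response element around the annotated starts of the 8 members with a RefSeq promoter, as distance in bases from the start, each grey line covering 250 bases before to 50 after it. Triangles point in the strand of the match; 4 members carry it between 35 and 41 bases before a start, and *Aim2* and *Ifi209* have none.

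Total counts were 14253416 to 18443329 per sample, and 3 counts, taken as the least that can be shown, came to 0.163 to 0.210 CPM. Control replicate 1 stood apart by sex in every tissue, with 3060 to 13811 counts of *Xist* and at most 3 of *Ddx3y*, against at most 20 and at least 825 in the other 20 samples. In muscle SN-011 replicate 2 only 11546 genes had any count, where each of the other 23 samples had 19798 or more, and it listed *Ifi209* and *Ifi211* at 0 counts. Muscle values of *Ifi209* and *Ifi211*, the members' median and the inflammasome and DNA sensing genes named there are given with and without that library. The calls in tongue are also given without control replicate 1. Nothing in the labels says whether the samples of a group came from separate animals, so the tests measure the spread between these samples.

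The family was most abundant in heart and tongue. Summed over the 9 members, the controls had 654 ± 199 CPM in heart (SD, n = 3), 466 ± 80.1 in tongue, 232 ± 28.7 in muscle and 198 ± 95.8 in stomach. Levels of different genes were compared per length, as CPM per kb of annotated exon. On that scale *Mndal* had the highest mean in heart at 36.0 ± 13.5, in muscle at 14.0 ± 2.35 and in stomach at 13.9 ± 5.90. In heart the next member, *Ifi204* at 28.1 ± 6.76, lay within that spread, and in tongue *Ifi204* at 36.5 ± 13.4 and *Mndal* at 34.4 ± 4.67 were also closer than their spread.

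*Aim2* had the lowest mean per length in heart (5.40 ± 2.10) and muscle (1.40 ± 0.526), and *Ifi205* was the lowest in stomach (1.31 ± 0.426) and tongue (3.52 ± 1.49). The pair *Aim2* and *Ifi205* differed by less than the larger SD in heart, where *Ifi205* was at 6.85 ± 1.61, in stomach, where *Aim2* was at 1.92 ± 1.15, and in tongue, where *Aim2* was at 4.15 ± 0.0313. The order between these ends was *Ifi204*, *Ifi211*, *Ifi203*, *Ifi209*, *Ifi207*, *Ifi213* and *Ifi205* in heart, and each differed from its neighbour by less than the larger SD of the pair. When only the 100-base words found in no other gene were taken as the length, *Ifi211* came first in heart, muscle and tongue, at 60.0, 19.5 and 44.7. With the longest transcript as the length the levels of some members rose, in heart to 64.5 for *Mndal*, 34.5 for *Ifi203* and 27.3 for *Ifi213*. *Ifi203* and *Ifi213* then stood above *Ifi211* in heart, and *Mndal* came first in tongue at 61.6.

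**Figure D2:**
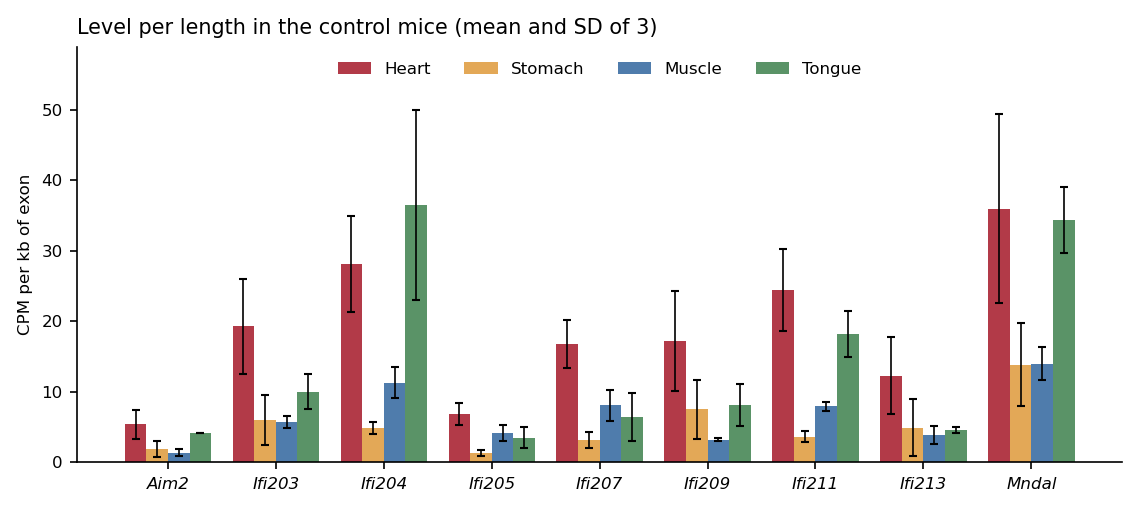
Level per length of each member in the control mice of 4 tissues, as CPM per kb of exon, with bars for the mean and whiskers for the SD of 3 samples. *Mndal* in heart and *Ifi204* and *Mndal* in tongue stand highest, between 34.4 and 36.5, and *Aim2* is at most 5.40 in every tissue.

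Between tissues, the control levels were compared gene by gene in a joint fit of all 24 samples with edgeR's quasi-likelihood test, adjusted by Benjamini-Hochberg over 19731 genes. Heart exceeded stomach in 8 of 9 members at an adjusted p under 0.05, beside 42.5% of all genes that differed in either direction. The difference was 2.74 on the log2 scale for *Ifi211* (SE 0.72), 2.53 for *Ifi204* (SE 0.32), 2.39 for *Ifi207* (SE 0.36) and 2.38 for *Ifi205* (SE 0.42). *Ifi209*, at 1.19 (SE 0.66), had an adjusted p of 0.154. Heart exceeded muscle in 7 members, beside 33.7% of all genes, with *Ifi209* (2.43, SE 0.69) and *Aim2* (1.95, SE 0.49) at the top. Leaving out heart control replicate 3 ended the calls of *Aim2* and *Ifi213* against stomach and of *Ifi207* and *Ifi213* against muscle. Leaving out stomach control replicate 1 ended the calls of *Aim2* and *Ifi213* against stomach, and stomach control replicate 2 that of *Ifi213*. The call of *Ifi207* against muscle was also lost without heart control replicate 1 or muscle control replicate 2 or 3.

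Heart and tongue were closer. Heart was higher in 3 members, beside 29.1% of all genes: *Ifi213* by 1.42 (SE 0.45), *Ifi207* by 1.39 (SE 0.34) and *Ifi203* by 0.94 (SE 0.35), the last at an adjusted p of 0.0484 that ran from 0.0146 to 0.258 over the alternatives. The call of *Ifi213* was lost without any 1 of the tongue controls or without heart control replicate 3, with an adjusted p of up to 0.145, and that of *Ifi207* held in every alternative, at up to 0.0345. *Mndal* differed by 0.07 (SE 0.30) and *Ifi204* was lower in heart, by a log2 difference of -0.38 (SE 0.30), neither past the threshold. *Ifi204* is thus the member with the highest mean in tongue rather than heart, 130.0 against 100.2 CPM.

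Stomach was the low end for *Ifi204*, *Ifi205* and *Ifi207*. Against muscle these 3 members were lower in stomach, with log2 differences of -1.22, -1.65 and -1.34 (SE 0.31, 0.42 and 0.35), beside 51.6% of all genes that differed. Against tongue 5 members were lower in stomach, beside 36.9% of all genes, with *Ifi204* at -2.90 (SE 0.33), *Ifi211* at -2.31 (SE 0.71), *Ifi205* at -1.42 (SE 0.41), *Mndal* at -1.31 (SE 0.31) and *Ifi207* at -1.01 (SE 0.34). Of these calls, that of *Ifi207* was lost without tongue control replicate 1 or stomach control replicate 1 or 2 (adjusted p up to 0.283), that of *Ifi205* without tongue control replicate 2 (0.0599) and that of *Ifi211* without stomach control replicate 3 (0.0527). Muscle was below tongue in 3 members, beside 38.1% of all genes: *Ifi204* at -1.69 (SE 0.31), *Aim2* at -1.57 (SE 0.48) and *Mndal* at -1.30 (SE 0.31). The call of *Aim2* was lost without muscle control replicate 2 or 3 (adjusted p up to 0.0689).

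The joint fit shares one spread across groups, and the 0 counts of *Ifi209* and *Ifi211* in muscle SN-011 replicate 2 entered it. Without that library 9 members passed the threshold between heart and stomach, 8 between heart and muscle, and 5 in each of the remaining pairs. The shares of all genes rose as well, to 50.4% and 41.7% in these pairs, 37.4% between heart and tongue, 58.3% between stomach and muscle, 45.4% between stomach and tongue and 45.5% between muscle and tongue. The members added were *Ifi209* in 4 of the pairs, *Ifi211* in 3 and *Ifi205* between heart and tongue. The SE of *Ifi211* for heart against stomach went from 0.72 to 0.37.

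**Figure D3:**
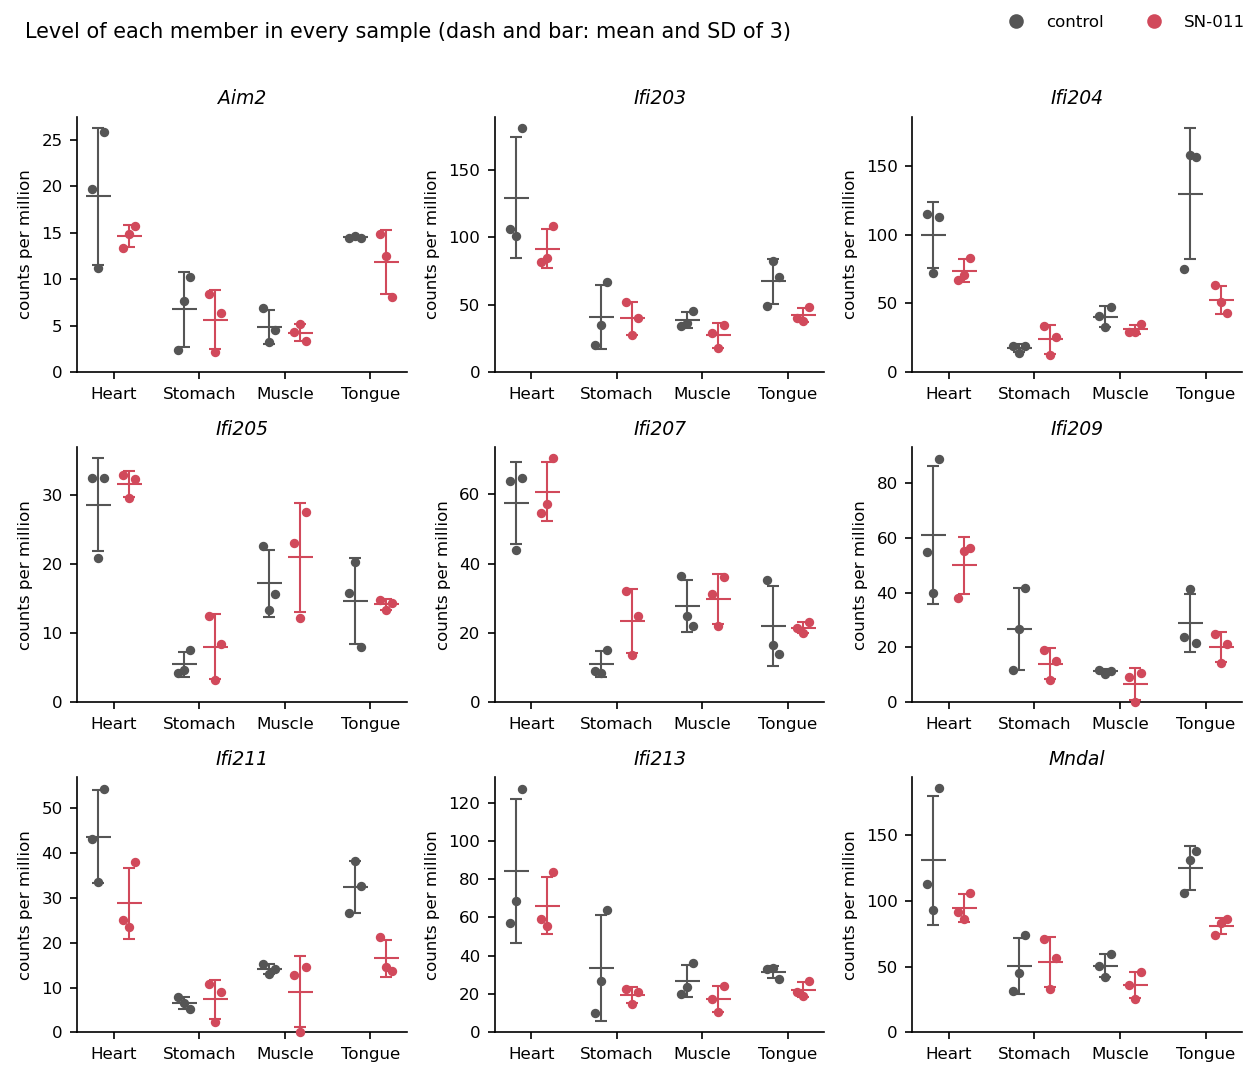
Level (CPM) of each member in each of the 24 samples, in 1 panel per gene with its own axis from 0, control in grey and SN-011 in red, with a dash and bar for the mean and SD of 3 samples. In tongue the red points of *Ifi203*, *Ifi204*, *Ifi211*, *Ifi213* and *Mndal* lie below all grey points, and in muscle 1 red point of *Ifi209* and of *Ifi211* is at 0.

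Tongue held the widest gap between the groups, led by the STING-linked sensor gene *Ifi204*. Its control samples had 74.8, 158 and 157 CPM and its SN-011 samples 63.8, 51.0 and 42.9. The lowest control was replicate 1, and it still exceeded every SN-011 sample. The fitted log2 fold change was -1.31 (SE 0.30), with an adjusted p of 0.268 in edgeR's quasi-likelihood test.

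*Ifi211*, the member of most shared sequence, had 26.6, 38.2 and 32.7 CPM in the tongue controls and 21.3, 14.6 and 13.8 after SN-011. The groups were apart, and the log2 fold change was -0.97 (SE 0.21, edgeR adjusted p 0.263). *Mndal* had 106, 131 and 138 CPM in the controls and 74.2, 82.9 and 85.9 after SN-011. The gap between its groups was wider than the range of the SN-011 samples, with a log2 fold change of -0.62 (SE 0.14, edgeR adjusted p 0.267).

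*Ifi203* shares exonic bases with *Mndal*, and its promoter stretch has the same letters around the motif at a separate position. It had 49.1, 82.1 and 70.7 CPM in the tongue controls and 40.2, 38.0 and 48.4 after SN-011. Control replicate 1 and SN-011 replicate 3 were within 1 CPM of each other, and the log2 fold change was -0.67 (SE 0.21, edgeR adjusted p 0.314). *Ifi213* had 33.2, 33.5 and 27.8 CPM in the controls and 21.1, 19.2 and 26.7 after SN-011. These groups too were apart only narrowly, with a log2 fold change of -0.50 (SE 0.17, edgeR adjusted p 0.352).

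The remaining 4 members overlapped between the tongue groups. The inflammasome sensor *Aim2* had 14.5, 14.7 and 14.5 CPM in the controls and 14.9, 12.4 and 8.08 after SN-011, a log2 fold change of -0.30 (SE 0.23). The controls were nearly level, and the SN-011 samples spread from above them to below. *Ifi209* gave -0.52 (SE 0.30), *Ifi205* -0.05 (SE 0.31) and *Ifi207* -0.04 (SE 0.34). *Ifi207* had 35.3, 16.6 and 14.0 CPM in the controls, the highest being replicate 1, and 21.5, 19.8 and 23.2 after SN-011. With a sample left out its change ran from -0.28 to 0.50.

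Over the tongue members, 9 of 9 fitted changes were negative, with a median of -0.52 on the log2 scale, beside a median of -0.01 over all 16587 genes tested. Without control replicate 1, the female sample, 7 of 9 were negative, with a median of -0.63. In that fit 1 member was higher at an unadjusted p under 0.05. With the replicate number as a block 7 were negative too. At an adjusted p under 0.05, 0 of 9 members and 0% of all genes were called. At an unadjusted p under 0.05, 5 members were lower, the same 5 that did not overlap, beside 7.33% of all genes lower. Every SN-011 sample was below every control for 5 of 9 members and for 7.92% of all genes. With 3 samples against 3, an exact two-sided permutation test cannot go below a p of 0.1, which each of these 5 members had.

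The call in tongue depended on the tool and on 1 library. DESeq2 called *Ifi204* (adjusted p 0.00375), *Ifi211* (0.00898) and *Mndal* (0.0199), among 418 of 16587 genes called. The exact test of edgeR called *Ifi204* (adjusted p 0.0151) and *Ifi211* (0.0274), among 246 genes. Without tongue control replicate 1, the female sample, edgeR's quasi-likelihood test called *Ifi203*, *Ifi204*, *Ifi211* and *Mndal* at adjusted p of 0.0124, 0.00206, 0.0137 and 0.0105, where 2135 of 17142 genes were called in all.

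Leukocyte markers were read beside these values. In tongue the 8 mononuclear phagocyte markers summed to 379 to 826 CPM in the controls and 520 to 636 after SN-011, and 0 of the 8 were lower in every SN-011 sample than in every control. The 826 was that of control replicate 1, and the other controls were at 522 and 379. *Lyz2* was the largest of these markers, at means of 377 CPM in the controls and 411 after SN-011. Of the 8 markers 5 had the lower mean after SN-011. The 5 T cell markers summed to 44.5 to 79.5 CPM against 36.7 to 60.8, with 1 of 5 apart, and the 4 B cell markers to 2.88 to 4.60 against 0.834 to 3.97. *Ptprc*, the common leukocyte antigen, ran from 31.2 to 46.6 CPM against 21.5 to 34.6. The 5 gastric epithelium markers, of which 5 had the lower mean after SN-011, summed to 16.1 to 394 CPM in the tongue controls and 1.64 to 5.58 after SN-011. The 4 squamous epithelium markers summed to 10490, 32004 and 46021 CPM in control replicates 1 to 3, and to 13425 to 20218 after SN-011. Of the controls, replicate 1 was highest for fibroblast (741, beside 423 and 312) and endothelium markers (242, beside 108 and 109). After SN-011 these summed to 386 to 463 and 122 to 126. The squamous, fibroblast, endothelium and skeletal muscle sums overlapped between the groups. The part of these cells in the members' values, and the source of the gastric marker reads, were not tested.

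In heart the members' means were mostly lower after SN-011 and every member overlapped between the groups. *Ifi211* had 43.2, 33.5 and 54.2 CPM in the controls and 25.1, 23.5 and 37.9 after SN-011, so 1 SN-011 sample stood above the lowest control. Its log2 fold change was -0.59 (SE 0.22, edgeR adjusted p 0.167). *Ifi204* had 115, 72.4 and 113 CPM in the controls and 67.3, 71.0 and 83.4 after SN-011, a log2 fold change of -0.43 (SE 0.18, edgeR adjusted p 0.202).

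*Mndal* and *Ifi203* were led in heart by control replicate 3. *Mndal* had 113, 93.1 and 186 CPM against 91.3, 86.2 and 106, and *Ifi203* had 106, 101 and 181 CPM against 81.8, 84.2 and 108. For both genes the 2 lower controls lay within or just beside the SN-011 range. The log2 fold changes were -0.46 (SE 0.23) and -0.49 (SE 0.23). *Ifi205* and *Ifi207* pointed the other way, at 0.15 (SE 0.17) and 0.09 (SE 0.17).

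Over the heart members, 7 of 9 changes were negative with a median of -0.36, beside -0.01 over all 16151 genes. At an adjusted p under 0.05, 0 members were called, beside 0.848% of all genes. At an unadjusted p under 0.05, 2 members were lower (*Ifi204* and *Ifi211*), beside 11.6% of all genes lower, and 0 members were apart, beside 13.4%. The median was -0.08 without control replicate 3 and -0.61 without control replicate 2, where *Ifi204* was called among 787 of 16599 genes. With no filter on low counts *Ifi203*, *Ifi204*, *Ifi211* and *Mndal* were called, at edgeR adjusted p of 0.0276, 0.0482, 0.00781 and 0.0472. That setting called 1888 of 30288 genes. In heart the phagocyte markers summed to 836 to 1231 CPM against 923 to 1124, *Ptprc* to 92.0 to 205 against 80.0 to 96.6, and the B cell markers to 14.9 to 282 against 6.06 to 132. The 4 fibroblast markers summed to 1470 to 2063 CPM in the heart controls and 1150 to 1225 after SN-011, and the 4 cardiomyocyte markers to 19519 to 27461 against 28134 to 34370, both without overlap. The gastric epithelium markers summed to 3.49 to 392 CPM against 0.718 to 6.79, with 5 of 5 lower in mean. The part of these cells, and the source of the gastric marker reads, were not tested.

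In muscle 7 of 9 changes were negative with a median of -0.43, beside -0.08 over all 14198 genes. *Ifi209* had 11.9, 10.5 and 11.5 CPM in the controls and 9.38, 0 and 10.7 after SN-011, and *Ifi211* had 15.3, 13.0 and 14.2 CPM against 12.9, 0 and 14.5. Both genes were near the control level in 2 SN-011 samples, and the 0 of replicate 2 allows up to 0.210 CPM there, for counting error alone. Their log2 fold changes of -0.74 and -0.62 carried SEs of 1.24 and 1.23, and they became -0.17 and -0.04 without that library.

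*Mndal* and *Ifi203*, with counts in that library, had muscle log2 fold changes of -0.43 (SE 0.21) and -0.44 (SE 0.23). With a sample left out these ran from -0.59 to -0.30 and from -0.62 to -0.26. *Mndal* had 50.6, 42.4 and 59.5 CPM against 36.1, 25.7 and 45.7, with 1 SN-011 sample above the lowest control. In muscle 0 members passed an adjusted p of 0.05, beside 0.0141% of all genes, 0 were lower at an unadjusted p under 0.05, beside 5.8%, and 0 were apart, beside 21.6%. The median was -0.26 without SN-011 replicate 2. In muscle *Ptprc* ran from 21.8 to 33.7 CPM in the controls and 3.36 to 20.9 after SN-011, the T cell markers from 23.5 to 36.7 against 18.1 to 22.6, and the phagocyte markers from 469 to 518 against 324 to 712. The 3.36 of *Ptprc* and the 324 of the phagocyte markers were those of SN-011 replicate 2. In the other SN-011 samples *Ptprc* was at 17.9 and 20.9 CPM, and the phagocyte sums of 712 and 664 lay above every control. Sums were lower in every SN-011 sample for fibroblast markers (1490 to 2132 against 678 to 1147 CPM), the 3 endothelium markers (287 to 357 against 176 to 249) and gastric epithelium markers (10.5 to 174.4 against 0 to 6.78), and the sum of skeletal muscle markers was higher in every SN-011 sample. The lowest fibroblast, endothelium and gastric sums were also those of SN-011 replicate 2. The part of these cells, and the source of the gastric marker reads, were not tested.

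Stomach had no common direction. *Ifi207*, whose product carries a long repeat region between its pyrin and HIN domains, had 8.99, 8.56 and 15.2 CPM in the controls and 32.1, 13.6 and 24.8 after SN-011. Control replicate 3 stood above the lowest SN-011 sample, so the groups overlapped, and the log2 fold change was 1.13 (SE 0.39, edgeR adjusted p 0.135). In the joint fit of all tissues it was 1.10 with an edgeR adjusted p of 0.0386, where 2738 of 19731 genes were called in stomach.

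*Ifi205* at 0.59 (SE 0.52) and *Ifi204* at 0.50 (SE 0.37) had higher stomach means after SN-011, and *Ifi209* at -0.91 (SE 0.49) and *Ifi213* at -0.77 (SE 0.58) had lower ones. Stomach controls varied widely: *Ifi213* had 9.89, 27.1 and 63.9 CPM there, against 22.7, 14.6 and 21.3 after SN-011. The middle control exceeded all SN-011 samples and the lowest control was under all of them. Of the 9 changes 4 were negative, with a median of 0.11 beside 0.00 over all 17031 genes. At an adjusted p under 0.05, 0 members and 0% of genes were called, and 0 members were lower at an unadjusted p under 0.05, beside 11.4%, or apart, beside 16.1%. The stomach median turned to -0.18 without control replicate 1 and -0.16 without SN-011 replicate 1, and was 0.04 without control replicate 2, 0.51 without control replicate 3, 0.35 without SN-011 replicate 2 and 0.06 without SN-011 replicate 3. Stomach *Ptprc* ran from 23.5 to 111 CPM in the controls and 14.9 to 44.8 after SN-011. The phagocyte markers summed to 269 to 418 CPM against 176 to 673, and 2 of the 8 had the lower mean after SN-011. The T cell markers summed to 33.6 to 43.0 CPM against 14.1 to 37.1, and the B cell markers to 73.7 to 148 against 71.6 to 133. The 4 squamous epithelium markers, each higher in every SN-011 sample, summed to 85.5 to 199 CPM against 359 to 1165, the gastric epithelium markers to 4312 to 7712 against 1649 to 4641, and the fibroblast markers to 484 to 794 against 460 to 1615. The part of these cells was not tested.

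**Figure D4:**
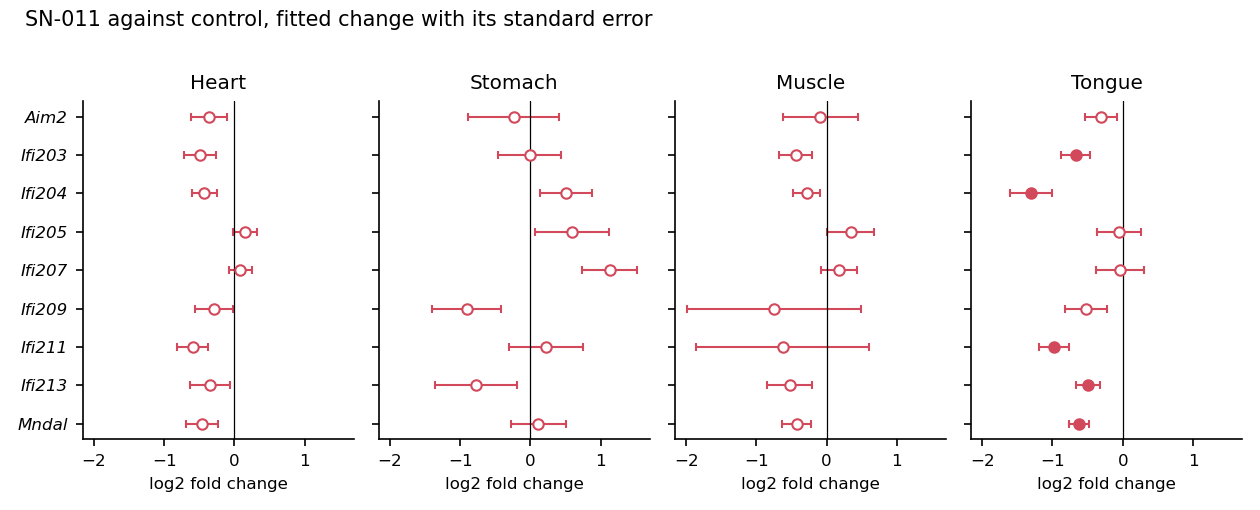
Fitted log2 fold change of each member, SN-011 against control, in 4 tissues, with whiskers for the standard error of edgeR's fit. Filled points mark members whose SN-011 samples all lie below the controls, which are 5 in tongue and 0 elsewhere; the widest whiskers are those of *Ifi209* and *Ifi211* in muscle, where 1 library is at 0.

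Over the 4 tissues 27 of the 36 member changes were negative. *Aim2*, *Ifi203*, *Ifi209* and *Ifi213* had negative values in 4 tissues, though that of *Ifi203* in stomach was -0.01. *Ifi204*, *Ifi211* and *Mndal* did so in 3, the exception being stomach. *Ifi205* and *Ifi207* were negative in tongue alone, at -0.05 and -0.04, and with a sample left out these ran up to 0.24 and 0.50.

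Whether the change after SN-011 differed between tissues was tested as an interaction in the joint fit. At an adjusted p under 0.05, 0 of 9 members differed in each of the 6 pairs of tissues. Of all genes, 2.01% passed that threshold between heart and stomach, 6.95% between stomach and muscle, 0.821% between stomach and tongue, 0.0355% between muscle and tongue, 0.00507% between heart and muscle, and 0% between heart and tongue. The widest difference past an unadjusted p of 0.05 was that of *Ifi204* between stomach and tongue, 1.77 on the log2 scale (SE 0.44, edgeR adjusted p 0.0546). Without muscle SN-011 replicate 2 it was 1.77 with an edgeR adjusted p of 0.0312, beside 3.96% of all genes past the threshold in that pair.

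*Ifi207* differed by 1.13 between stomach and tongue (SE 0.48, edgeR adjusted p 0.256) and by -1.02 between heart and stomach (SE 0.48, edgeR adjusted p 0.282). For the other 4 members that stand apart in tongue, 0 passed the adjusted threshold in any pair of tissues.

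Members varied together to different degrees. After removing each tissue's mean from log2 CPM, Pearson's r over the 24 samples had a median of 0.45 over 36 pairs of members, from 0.11 (*Aim2* with *Ifi211*) to 0.96 (*Ifi203* with *Mndal*). *Ifi203* and *Ifi213* had 0.89. *Ifi209* and *Ifi211* had 0.93, and 0.50 without muscle SN-011 replicate 2, where both are at 0. These points share libraries and depth, and neighbours share sequence, so the values are given as descriptions.

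The genes most like the family were found by their r to the mean scaled profile of the 9 members over the 24 samples. The nearest was *Fmnl1* at 0.93, a formin of haematopoietic cells, followed by *Pik3cd*, the leukocyte PI3K subunit, at 0.90, *Nckap1l*, the haematopoietic WAVE complex subunit, at 0.90, *Il10ra* at 0.89 and *Nrros* at 0.88. The median gene had 0.18, and 99% of genes were below 0.76. Without muscle SN-011 replicate 2 these 5 had 0.91, 0.87, 0.83, 0.85 and 0.87.

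By single member, the nearest gene was *Sash3* for *Aim2* (0.89), *Gm8995* for *Ifi203* (0.86), *Plxdc2* for *Ifi204* (0.84), *Nr1h3* for *Ifi205* (0.89), complement *C3* for *Ifi207* (0.92), *Cep192* for *Ifi213* (0.89) and *Pik3cd* for *Mndal* (0.85). *Ifi209* was nearest to *Wdfy4* (0.98, or 0.83 without muscle SN-011 replicate 2) and *Ifi211* to *Sting1* (0.97, or 0.78 without it).

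The partners of AIM2 were read from a list of 9 inflammasome genes, of which 9 were tested in heart and tongue and 8 in stomach and muscle. At an adjusted p under 0.05, 0 passed in any tissue in either direction. The 2 of smallest p in heart were *Pycard*, the ASC adaptor that AIM2 recruits, and the cytokine *Il18*. *Pycard* had 18.4, 21.5 and 22.7 CPM in the heart controls and 9.21, 14.9 and 13.1 after SN-011, with every SN-011 sample lower (log2 fold change -0.74, SE 0.19, edgeR adjusted p 0.0881), and *Il18* gave -0.68 (SE 0.27).

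In stomach they were *Casp8*, an initiator caspase that ASC can also bind, at -1.14 (SE 0.25, edgeR adjusted p 0.0727), and *Pycard* at -1.25 (SE 0.35). The stomach values of *Casp8* were 67.2, 70.8 and 70.7 CPM against 22.5, 38.3 and 32.2, and both genes were lower in every SN-011 sample. In tongue *Casp4*, the caspase that senses lipopolysaccharide, gave -0.64 (SE 0.17) and *Casp1*, the protease of the inflammasome, -0.36 (SE 0.13), again apart. In muscle *Trim11* gave 0.36 (SE 0.16) and *Nlrp3* 2.01 (SE 0.89), higher in every SN-011 sample. The muscle SN-011 samples of *Nlrp3* had 1.92, 6.83 and 1.39 CPM, the highest being replicate 2, and without that library *Nlrp3* gave 0.81 (SE 0.39) and *Trim11* 0.29 (SE 0.12).

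Of 18 genes of cytosolic DNA sensing, 16 were tested in each tissue and 0 passed an adjusted p of 0.05. *Zbp1*, a sensor of Z-form nucleic acid, was among the 2 of smallest p in heart, muscle and tongue. In tongue it had 126, 171 and 140 CPM in the controls and 82.4, 64.3 and 83.5 after SN-011, with the groups apart (log2 fold change -0.93, SE 0.16, edgeR adjusted p 0.263). In muscle it gave -1.33 (SE 0.27) and in heart -0.66 (SE 0.22). Without muscle SN-011 replicate 2 it passed the threshold in muscle, at -1.14 (SE 0.20, edgeR adjusted p 0.0315), beside 7.4% of all genes.

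*Sting1*, the adaptor that SN-011 targets, gave -0.70 in heart (SE 0.23, edgeR adjusted p 0.133), and its heart groups overlapped. The other genes of smallest p were *Ikbke* (0.70, SE 0.22) and *Xrcc5* (-0.74, SE 0.23) in stomach, *Irf7* in muscle (-0.58, SE 0.19, or -0.49 without SN-011 replicate 2) and *Lrrfip1* in tongue (-0.52, SE 0.12). The median change over the tested genes of this list was -0.08 in heart, -0.22 in stomach, -0.52 in muscle and -0.09 in tongue. In muscle it was -0.24 without SN-011 replicate 2, which lists *Sting1*, *Cgas* and *Rad50* at 0.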

How the data were processed

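Polyadenylated RNA of 24 mouse tissue samples was sequenced as pairs. The labels name HISAT2, HTSeq and mm10, and the methods name Trimmomatic, hisat2 and featureCounts for uniquely mapped pairs. The authors deposited raw counts per gene, with no normalization. The authors' own comparisons were not used. Counts with symbols from GENCODE M21 (GRCm38; 54495 of 54532 identifiers) were fitted per tissue in edgeR 4.0.16 (R 4.3.3, limma 3.58.1): filterByExpr (minimum count 10, total 15), TMM, quasi-likelihood test, Benjamini-Hochberg over all genes tested, threshold 0.05. Tissues were compared in a joint fit of 24 samples. SE is the log2 fold change over the root of F. CPM used TMM over 24 samples. Depth was 14253416 to 18443329 counts per sample. Alternatives were DESeq2 1.42.0 and its size factors, edgeR's exact test, other filters, a replicate block, each sample left out and, added after the values were seen, the joint fit without muscle SN-011 replicate 2. Tests were checked on simulated counts with planted changes, a fixed spread and no outlying library, which does not cover the uneven samples here. Python 3.11.15 (pandas 2.3.3, scipy 1.17.1, matplotlib 3.10.9) was used for the rest. The members and lists were chosen with earlier results of these data known.

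The 9 members are always named; of the inflammasome and DNA sensing lists, genes past the threshold or else the 2 of smallest p per tissue; and the 5 genes most like the family, with the nearest of each member, among genes of at least 1 CPM per tissue. A gene named as a marker or for sex came from fixed marker lists.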

Additional observations from a re-analysis of the deposited data

How the results depend on the processing

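Of 466 repeated values of a member's change, 428 kept their direction and side of the threshold, 15 passed it and 23 changed sign, and the median change of the members moved by less than the spread between samples in 52 of 52 settings, though that of stomach, near 0, ran from -0.18 to 0.51 with a sample left out. Members called in heart were 4 with no filter on low counts and 0 to 1 with a sample left out. In stomach 1 was called in the joint fit. In tongue 3 were called by DESeq2, 2 by edgeR's exact test, and 0 to 4 with a sample left out. For these calls the cause was not tested. With a sample left out, the members that differed in level were 1 to 5 for heart and tongue, 3 to 5 for stomach and muscle and 2 to 5 for muscle and tongue, and the change of 0 to 1 differed between stomach and tongue. That member was *Ifi204*, and it was 1 with DESeq2's size factors, with no filter and with DESeq2.

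Genes called in all were in heart 1888 with no filter, 265 with at least 10 counts in every sample, 1361 with DESeq2, 912 with the exact test, 1 in the joint fit and 1 to 787 with a sample left out. The same settings gave in stomach 1368, 126, 2389, 1807, 2738 and 0 to 64, and in muscle 110, 75, 880, 442, 474 and 0 to 1103, with 1 for DESeq2's size factors. In tongue they were 18 with no filter, 418 with DESeq2, 246 with the exact test, 4 in the joint fit and 0 to 2135 with a sample left out.

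The values whose sign changed included -0.77 for *Ifi213* in stomach, -0.34 for *Ifi213* in heart and -0.28 for *Ifi209* in heart. With a sample left out, heart ranges were -0.026 to 0.24 for *Ifi205*, -0.068 to 0.17 for *Ifi207*, -0.51 to 0.080 for *Ifi209* and -0.58 to 0.076 for *Ifi213*. Stomach ranges were -0.18 to 0.51 for *Mndal*, -0.68 to 0.20 for *Aim2*, -0.38 to 0.56 for *Ifi203*, -1.24 to 0.11 for *Ifi213* and -0.16 to 0.62 for *Ifi211*. That of *Aim2* in muscle was -0.36 to 0.25, and tongue ranges were -0.35 to 0.24 for *Ifi205* and -0.28 to 0.50 for *Ifi207*. *Ifi203* in stomach was 0.033 with at least 10 counts in every sample, a setting that left 7 members in muscle.

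The replicate numbers are not shown to pair samples: deviations of same-numbered control and SN-011 samples had a mean correlation of -0.23 in tongue and 0.07 in stomach, and same-numbered controls of different tissues 0.26, with a minimum of -0.14, beside -0.12 for other numbers. Control replicate 1 was female in every tissue, the labels do not say whether tissues share mice, and the joint fit takes the 24 samples as independent. With the number as a block in that fit, *Ifi203* also passed the threshold between stomach and tongue (6 members in all) and between muscle and tongue (4 members). Within tissues the replicate block called 0 members in each tissue, and 242 genes in heart, 181 in stomach, 0 in muscle and 0 in tongue. With the block *Ifi203* in stomach was 0.10, and *Ifi205* and *Ifi207* in tongue 0.038 and 0.090. Depth limits the values little, as all members had 34 counts or more outside the library at 0.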

Other observations

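Of the other Ifi200 genes of the annotation, *Ifi202b*, whose product has HIN domains and no pyrin domain and is known as an inhibitor of AIM2, was almost confined to tongue. It had 423, 556 and 559 counts in the tongue controls and 467, 315 and 400 after SN-011, and at most 7 counts in any heart, stomach or muscle sample. Its transcript shares no 100-base word with another gene. The tongue means were 26.8 ± 5.85 and 20.6 ± 3.26 CPM (SD, n = 3), the groups overlapped, and the log2 fold change was -0.38 (SE 0.20, edgeR adjusted p 0.467).

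*Ifi206* and *Ifi208* lay lower in every tongue SN-011 sample than in every control, with log2 fold changes of -0.78 (SE 0.27) and -1.10 (SE 0.32), as did the pseudogene *Ifi203-ps* at -1.11 (SE 0.34). Their edgeR adjusted p were 0.355, 0.297 and 0.319. In heart, *Ifi206* was also apart, at -0.65 (SE 0.24, edgeR adjusted p 0.167). *Ifi214*, which shares 598 of its 100-base words with *Ifi209*, had at most 5.81 CPM on average in the controls of any tissue.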
